A study of Mus musculus with 3 samples.

Results

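The CCN family of matricellular genes, *Ccn1* to *Ccn5*, was examined across stromal, mural and endothelial cells of the mouse inguinal fat pad. Its members were the 5 rows of the expression matrix with these symbols, out of 32285 genes. Levels were read in 31905 cells that held at least 2000 unique molecular identifiers (UMIs, 1 per captured RNA molecule) and at most 10% mitochondrial UMIs. The cells came from the stromal vascular fraction, the cells left after adipocytes are removed from digested fat, of 4-week-old mice of both sexes, and were depleted of CD45+ cells and sorted as DAPI-negative. Each genotype gave a single 10x Genomics droplet library from several pooled mice, so there is no replicate error for any genotype and no test between genotypes was possible.

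The wild-type library held 10511 cells. The Mgp-KO library held 12575 cells from mice with global deletion of *Mgp*, which encodes matrix Gla protein, an extracellular inhibitor of calcification that also binds bone morphogenetic proteins. The Pd-KO library held 8819 cells from mice with floxed *Mgp* alleles and a Pdgfra-Cre transgene, in which deletion is driven only where the *Pdgfra* promoter is or was active, mainly the stromal cells. No library of floxed mice without Cre was analysed here, so the Cre transgene and the deletion cannot be told apart. By the file headers, wild-type was processed with Cell Ranger 4 and both knockouts with Cell Ranger 7.1.0. The wild-type library therefore stands apart in processing as well as in genotype, and these cannot be told apart in either comparison with wild-type. By default, version 7 also counts reads in introns and version 4 does not. The comparison of Pd-KO with Mgp-KO involves a single software version and is given beside the others.

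CCN proteins are secreted, cysteine-rich proteins that sit in the extracellular matrix without being structural parts of it, and act by binding integrins, LRP receptors, syndecans and growth factors. CCN1 (formerly CYR61) and CCN2 (CTGF) are immediate early gene products, induced within minutes by serum, mechanical strain and TGF-beta, and are widely used readouts of the transcriptional co-activator YAP with TEAD factors. CCN3 (NOV) is often counter-regulated to CCN2. CCN4 (WISP1) and CCN5 (WISP2) were named as genes induced by WNT1. CCN5 lacks the C-terminal cystine-knot domain that the other members carry, and is secreted by adipose precursor cells.

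The genes lie on 4 chromosomes of the GRCm38 build. *Ccn1* spans chr3:145646976-145649981 on the minus strand, *Ccn2* spans chr10:24595442-24598683, *Ccn3* spans chr15:54745702-54754039, *Ccn4* spans chr15:66891320-66923201 and *Ccn5* spans chr2:163820861-163833146, the last 4 on the plus strand. *Ccn1* and *Ccn2* are compact genes of 3006 and 3242 bases, *Ccn3* and *Ccn5* cover 8338 and 12286 bases, and *Ccn4* covers 31882 bases. Span matters here because the libraries may differ in whether intronic reads were counted. The related *Ccn6* had 17, 14 and 21 UMIs over all cells of wild-type, Mgp-KO and Pd-KO and was not followed further.

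The set of RefSeq promoters used here held 1 of the 5 members, *Ccn1*, and its promoter is shown. RefSeq gives this stretch of 300 bases, 250 before the transcript start and 50 after it, at chr3:145649936-145650235 of GRCm38.p6 on the minus strand; the capitals mark CATTCC, the core of the motif bound by TEAD factors, ACGTCA, which is TGACGT, the 5′ part of the cyclic AMP response element and not the whole palindrome, read on the opposite strand, and the TATA box letters TATAAA.
Ccn1: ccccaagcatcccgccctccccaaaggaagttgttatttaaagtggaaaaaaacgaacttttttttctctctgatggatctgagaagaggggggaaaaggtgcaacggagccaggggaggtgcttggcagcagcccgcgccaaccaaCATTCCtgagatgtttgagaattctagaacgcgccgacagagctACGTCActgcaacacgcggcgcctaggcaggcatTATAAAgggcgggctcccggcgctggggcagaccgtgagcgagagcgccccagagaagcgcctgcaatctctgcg
None of the 3 motifs overlaps another. CATTCC lies 103 to 98 bases before the start, ACGTCA 59 to 54 bases before it and TATAAA 25 to 20 bases before it. Searched on both strands, CATTCC is held by 14.7% of 32851 mouse promoters of the same length, TGACGT by 7.51% and TATAAA by 13.6%. These matches describe the letters in the window and do not show that a factor binds there. Promoters of *Ccn2*, *Ccn3*, *Ccn4* and *Ccn5* were not in that set and are not shown.

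Cells were grouped by clustering without the CCN genes, *Mgp*, *Xist* or Y-linked genes, and named by fixed marker lists. Of the 8 classes followed, 5 were stromal: interstitial progenitor-like cells (*Dpp4*, *Pi16*), Cilp/Sfrp2 fibroblast-like cells, preadipocyte-like cells (*Icam1*, *Bmper*), Areg-like cells (adipogenesis regulators with *F3*, *Gdf10* and *Fmo2*) and Col18a1 stromal cells (*Col18a1*, *Fgf10*). The others were smooth muscle-like, pericyte-like and endothelial-like cells. In every library each of these classes had all members of its own marker list at 20 CPM or more, a gene's UMIs scaled to a common total of all UMIs in the class. At most 1 of 7 leukocyte markers reached that level in any of the 8 classes, and only in endothelial-like cells. In Areg-like cells, the class with the highest wild-type level among the 8, *Mgp* was 3826 CPM in wild-type, 24.9 CPM in Mgp-KO and 3.53 CPM in Pd-KO. In pericyte-like cells it was 1010, 0 and 852 CPM in the same order, so the Pd-KO library kept *Mgp* in this class outside the stroma. The other classes outside the stroma had less in Pd-KO than in wild-type. Smooth muscle-like cells had 206, 0 and 69.3 CPM, and endothelial-like cells 424, 0 and 17.9 CPM. Wild-type cells held more UMIs (median 12802 per cell) than Mgp-KO (6445) and Pd-KO cells (8269). Barcodes shared between libraries numbered 40, 37 and 35 for the 3 pairs. The libraries also differed in sex makeup: cells with *Xist* and no Y-linked UMI made up 22.2% of the wild-type library, 43.3% of Mgp-KO and 23.2% of Pd-KO.

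Levels are given as CPM of the UMIs summed over a class, with 95% exact Poisson intervals that cover counting error only. A log2 ratio between libraries was centred on the median of all tested genes of its class, and a gene was called past 2-fold at a centred log2 ratio of at least 1 or at most -1. Before centring, the class medians lay between -0.07 and 0.16 for Mgp-KO over wild-type, 0.10 and 0.30 for Pd-KO over wild-type, and 0.03 and 0.13 for Pd-KO over Mgp-KO. A member was tested in a class where both libraries together held at least 100 of its UMIs, which left 27 of 40 pairs of member and class.

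*Ccn1* was present in every class, and in nearly all of them Mgp-KO stood above wild-type and Pd-KO below it. Over the 5 stromal classes together it stood at 306 CPM (95% interval 303 to 309) in wild-type, 534 CPM (529 to 539) in Mgp-KO and 199 CPM (195 to 202) in Pd-KO. After each cell was thinned to 2000 UMIs, 37.4%, 50.9% and 27.7% of stromal cells held a *Ccn1* UMI, against 78.9%, 74.5% and 60.1% before thinning. The unthinned shares put wild-type, the deepest library, first, so only thinned shares are compared.

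In interstitial progenitor-like cells *Ccn1* was 256 CPM (250 to 263) in wild-type, 555 CPM (545 to 564) in Mgp-KO and 176 CPM (171 to 182) in Pd-KO. Cilp/Sfrp2 fibroblast-like cells showed the same order, with 297, 588 and 199 CPM. Preadipocyte-like cells held 345, 583 and 264 CPM. No 2 libraries overlapped in any of these classes. Areg-like cells had the lowest stromal level in each library, at 185, 293 and 159 CPM. In Pd-KO their interval (147 to 171) overlapped those of Col18a1 stromal and interstitial progenitor-like cells. Col18a1 stromal cells were the exception in Mgp-KO, where their 443 CPM (432 to 454) was close to the 372 CPM (364 to 381) of wild-type, while Pd-KO stood at 167 CPM (155 to 179).

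Mural and endothelial cells carried *Ccn1* too. Smooth muscle-like cells had 282 CPM (268 to 297) in wild-type, 538 CPM (468 to 616) in Mgp-KO and 357 CPM (320 to 397) in Pd-KO. This was the single class of the 8 in which Pd-KO was above wild-type. Pericyte-like cells had 270, 500 and 161 CPM from 139, 115 and 184 UMIs, and endothelial-like cells 159, 247 and 119 CPM. Among endothelial cells, capillary-like cells had 150, 247 and 111 CPM, venular-like cells 113, 178 and 73.4 CPM, and arterial-like cells 250, 189 and 163 CPM, where the Mgp-KO value rested on 28 UMIs and its interval (126 to 274) overlapped both others.

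The ranking of classes by *Ccn1* changed between libraries. In wild-type, Col18a1 stromal cells were highest, then preadipocyte-like cells, and Cilp/Sfrp2 fibroblast-like, smooth muscle-like, pericyte-like and interstitial progenitor-like cells followed with intervals that overlapped from neighbour to neighbour. In Mgp-KO, Cilp/Sfrp2 fibroblast-like and preadipocyte-like cells led and overlapped each other. In Pd-KO, smooth muscle-like cells led, above preadipocyte-like cells. Endothelial-like cells were lowest of the 8 classes in each library, and in Mgp-KO they overlapped Areg-like cells.

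Free RNA in droplets can give *Ccn1* UMIs to cells that do not express it. Luminal epithelial-like cells, a type in which the level was lowest apart from adipocyte-like cells, held a *Ccn1* UMI in 11.1%, 13.3% and 5.51% of thinned cells in wild-type, Mgp-KO and Pd-KO (42.4%, 31.1% and 20.5% before), with median depths of 21676, 8874 and 10846 UMIs. In the interstitial progenitor-like class the thinned shares were 33.8%, 53.2% and 24.7%, with median depths of 13826, 6013 and 8924 UMIs. Free RNA itself, read from barcodes with between 10 and 100 UMIs, had *Ccn1* at 226, 652 and 274 CPM. Free RNA was thus highest in the same library as the cells, and its part in the cell values was not tested.

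**Figure D1:**
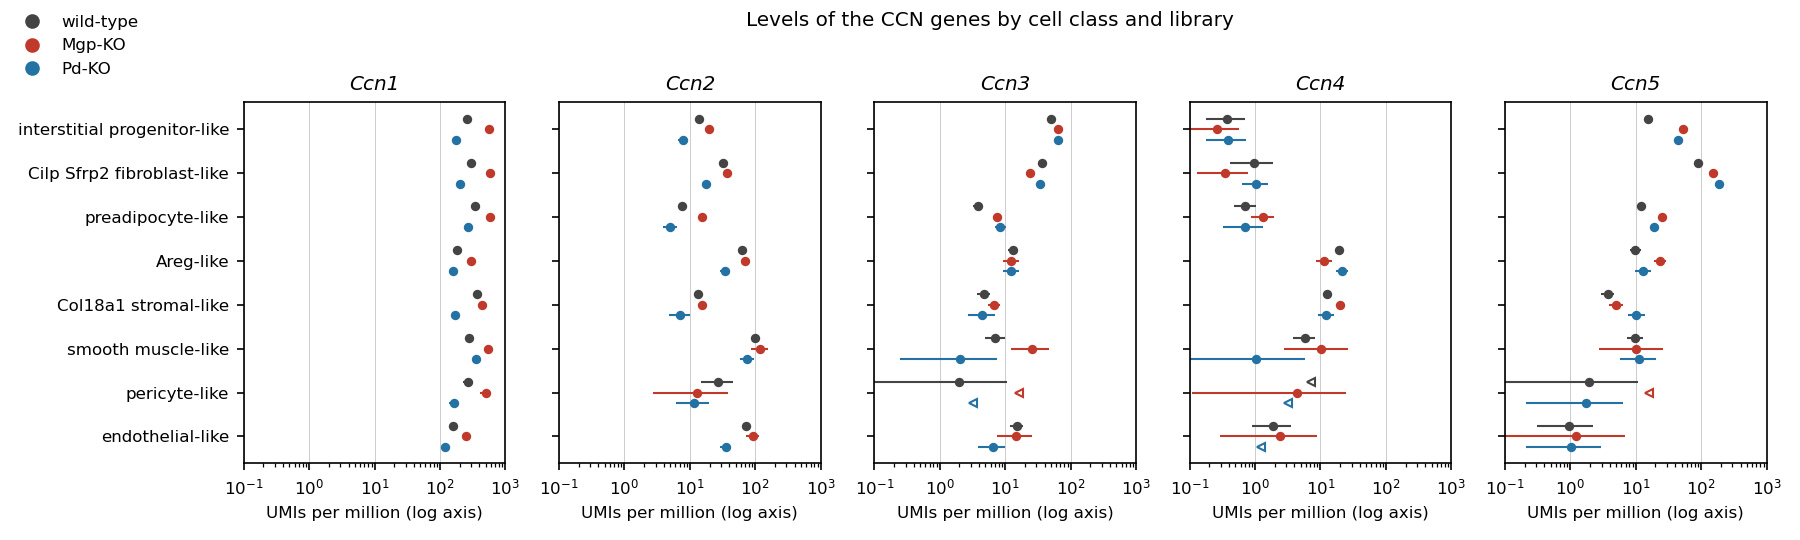
Level of each CCN gene in 8 cell classes of the 3 libraries, on a log axis of CPM of summed UMIs; points are the levels, bars are 95% exact Poisson intervals (counting error only) and open triangles are the upper limits of classes with 0 UMIs. *Ccn1* is read in every class, with Mgp-KO highest in all 8 and Pd-KO lowest in 7 of 8, whereas *Ccn5* is concentrated in Cilp/Sfrp2 fibroblast-like cells and *Ccn4* in Areg-like and Col18a1 stromal cells.

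Relative to the median gene, *Ccn1* was above wild-type in all 8 classes of Mgp-KO, with centred log2 ratios from 0.09 in Col18a1 stromal cells to 0.96 in interstitial progenitor-like cells (95% counting interval 0.92 to 1.00), and no class passed 2-fold. Among all tested genes and classes of this comparison 10.6% of pairs were past 2-fold higher and 2.55% lower. The sign turned in Col18a1 stromal cells when classes were formed without integration of the libraries (-0.21), and in smooth muscle-like cells when cells with *Xist* and no Y-linked UMI were used alone (-0.23). In Pd-KO it was below wild-type in 7 of 8 classes, from -1.35 (-1.46 to -1.24) in Col18a1 stromal cells, the single class past 2-fold (background 3.98% lower and 13.7% higher), to -0.47 in Areg-like cells. In Cilp/Sfrp2 fibroblast-like cells the value of -0.73 turned to 0.07 without integration. Smooth muscle-like cells stood at 0.20 (0.03 to 0.37), and at -0.28 in cells with *Xist* alone. Against Mgp-KO, which was processed with the same software, Pd-KO was lower in all 8 classes and past 2-fold in 7 (background 2.94% lower and 2.13% higher). The values ran from -1.71 (-1.76 to -1.66) in interstitial progenitor-like cells to -0.67 (-0.92 to -0.41) in smooth muscle-like cells, where the sign turned to 0.26 among cells of at least 5000 UMIs.

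The lower *Ccn1* of Pd-KO moved together with immediate early and heat shock genes. These 19 genes, such as *Fos*, *Jun*, *Egr1* and *Atf3* and the chaperone *Hspa1a*, respond within minutes to serum or stress, tissue digestion among them. Across the 8 classes, Pd-KO over wild-type was past 2-fold lower in 116 of 150 tested pairs of gene and class and higher in 0, with a median centred log2 ratio of -1.36. All tested pairs of that comparison gave 3.98% lower and 13.7% higher. Against Mgp-KO the counts were 128 lower and 0 higher of 146, median -1.69 (all pairs 2.94% lower and 2.13% higher). In interstitial progenitor-like cells *Atf3* stood at 196 CPM in wild-type, 280 CPM in Mgp-KO and 34.3 CPM in Pd-KO. Mgp-KO over wild-type was mixed, with 20 higher and 8 lower of 148 and a median of 0.21 (all pairs 10.6% higher and 2.55% lower). Of the higher pairs, 12 lay in smooth muscle-like cells, and the lower pairs were 1 in each class. The part of this programme, or of tissue handling, in the *Ccn1* values was not tested.

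The summed level of the 19 genes in interstitial progenitor-like cells was 7314 CPM in wild-type, 9466 CPM in Mgp-KO and 3442 CPM in Pd-KO. Smooth muscle-like cells had 12271, 26847 and 6089 CPM. There the sum in Pd-KO was below wild-type while *Ccn1* was above it. Within a library the level of *Ccn1* and the summed level over the 8 classes were loosely related, with Pearson r of 0.45, 0.27 and 0.48 in wild-type, Mgp-KO and Pd-KO, a description over 8 classes that share a library, its depth and its free RNA.

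**Figure D2:**
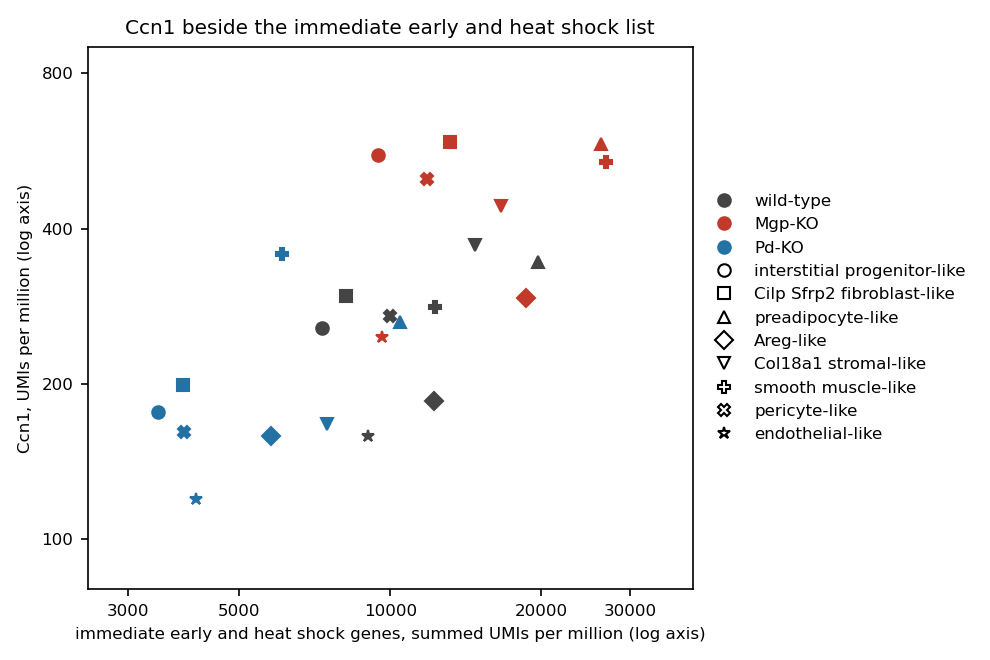
*Ccn1* (vertical axis, CPM, log scale) against the summed CPM of 19 immediate early and heat shock genes (horizontal axis, log scale), with 1 point for each of 8 classes in each library. Pd-KO points lie to the left of the wild-type and Mgp-KO points of the same class, and Pd-KO smooth muscle-like cells combine a sum of 6089 CPM with *Ccn1* at 357 CPM.

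*Ccn2*, the connective tissue growth factor gene, was highest, among the 8 classes followed, in smooth muscle-like cells of each library, and Pd-KO had the lowest level in every tested class. Smooth muscle-like cells had 97.5 CPM (89.1 to 107) in wild-type, 117 CPM (85.9 to 157) in Mgp-KO and 75.5 CPM (59.2 to 94.9) in Pd-KO. Endothelial-like cells had 72.3, 92.0 and 35.4 CPM, and Areg-like cells 63.5, 70.8 and 34.6 CPM. These 2 classes overlapped in each library, and in Mgp-KO the smooth muscle-like and endothelial-like intervals overlapped as well. Wild-type and Mgp-KO overlapped in all 3 of these classes.

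In the other stromal classes *Ccn2* was low. Cilp/Sfrp2 fibroblast-like cells had 31.8, 36.6 and 17.3 CPM, interstitial progenitor-like cells 13.6, 19.5 and 7.77 CPM, Col18a1 stromal cells 13.4, 15.1 and 7.13 CPM, and preadipocyte-like cells 7.68, 15.5 and 5.03 CPM in wild-type, Mgp-KO and Pd-KO. The Pd-KO value was the lowest in each. Luminal epithelial-like cells held a *Ccn2* UMI in 0.541%, 1.33% and 0% of thinned cells, and preadipocyte-like cells in 1.39%, 2.34% and 0.670%. Free RNA had *Ccn2* at 21.8, 34.2 and 19.7 CPM, from 25, 27 and 66 UMIs. These levels were above those of interstitial progenitor-like, Col18a1 stromal and preadipocyte-like cells. The part of free RNA in the cell values was not tested. Pericyte-like cells held only 14, 3 and 13 UMIs and were not tested.

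*Ccn2* varied strongly within the vascular classes. Among wild-type smooth muscle-like clusters, the one led by *Cnn1* and *Actg2*, genes of contractile smooth muscle, had 412 CPM, whereas the clusters with *Ctnna3* and *Sncg* had 79.2 and 44.0 CPM. In Mgp-KO and Pd-KO these latter clusters had 173 and 65.4 CPM (*Ctnna3*) and 58.9 and 81.8 CPM (*Sncg*), and the intervals of all 3 libraries overlapped in the *Sncg* cluster. The study also marks myoepithelial cells by *Cnn1*, and mural clusters were named without the myoepithelial list. Whether the *Cnn1* and *Actg2* cluster holds such cells was not tested. Among endothelial cells, capillary-like cells had 114 CPM in wild-type, 146 CPM in Mgp-KO and 44.2 CPM in Pd-KO, venular-like cells 47.6, 27.4 and 29.4 CPM from 77, 4 and 14 UMIs, and arterial-like cells held 6, 0 and 1 UMIs. Within capillary-like cells the cluster with *Esm1*, a tip cell gene, had 168, 181 and 42.2 CPM, whereas the cluster with *Car4* had 41.8, 78.5 and 46.6 CPM, with overlapping intervals for wild-type and Pd-KO. The makeup of the endothelial class also differed, since capillary-like cells were 48.6%, 57.7% and 67.4% of it. Myoepithelial-like cells, the contractile cells of the mammary duct, had *Ccn2* at 235 and 257 CPM in wild-type and Mgp-KO and 55.5 CPM in Pd-KO, the last from 11 UMIs.

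Centred log2 ratios of *Ccn2* in Mgp-KO over wild-type excluded 0 in 2 of 7 tested classes, preadipocyte-like (0.86, 0.62 to 1.10) and interstitial progenitor-like cells (0.36, 0.16 to 0.57). In Pd-KO over wild-type all 7 were below 0, and 4 passed 2-fold: endothelial-like (-1.19, -1.52 to -0.88), Areg-like (-1.13), Col18a1 stromal (-1.11) and Cilp/Sfrp2 fibroblast-like cells (-1.03). Interstitial progenitor-like cells, at -0.99, lay just outside the threshold. None of these 4 calls held on the scale of genes of similar span, which is given below. The value for Cilp/Sfrp2 fibroblast-like cells reversed to 0.22 in cells with *Xist* alone, and that for smooth muscle-like cells (-0.51) turned to 0.23 in cells with a Y-linked UMI and no *Xist*. Pd-KO over Mgp-KO was below 0 in all 7, from -1.76 in preadipocyte-like cells to -0.71 in smooth muscle-like cells.

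*Ccn3*, whose product antagonises proliferation in several cell types, was a gene of interstitial progenitor-like cells and differed little between genotypes there. This class had 50.3 CPM (47.7 to 53.1) in wild-type, 64.4 CPM (61.2 to 67.7) in Mgp-KO and 65.3 CPM (62.1 to 68.7) in Pd-KO, and was the highest of the 8 classes in each library. The thinned share of cells with a UMI was 9.18%, 9.68% and 10.96% (30.3%, 21.7% and 30.6% unthinned), against 0%, 0.499% and 0.787% of luminal epithelial-like cells. Cilp/Sfrp2 fibroblast-like cells had 36.9, 24.3 and 33.9 CPM.

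Within the interstitial progenitor-like class, the cluster with *Krtdap* had 81.9, 78.5 and 68.8 CPM of *Ccn3* and the cluster led by *Pi16* had 30.8, 45.4 and 59.7 CPM. The knockouts were not higher in the former, and they were in the latter. The *Krtdap* cluster was 35.3%, 46.2% and 52.0% of the class, so the class value mixed the clusters in different shares. Levels elsewhere were low: Areg-like cells had 13.0, 12.3 and 12.2 CPM, and preadipocyte-like cells 3.83, 7.60 and 8.44 CPM. Venular-like and arterial-like endothelial cells (28.4 and 33.4 CPM in wild-type) held more *Ccn3* than capillary-like cells (3.72 CPM), and the knockouts, with 2 to 10 UMIs in each of these groups, had 27.4 and 33.8 against 4.16 CPM (Mgp-KO) and 21.0 and 13.4 against 1.96 CPM (Pd-KO). Smooth muscle-like cells had 36, 10 and 2 UMIs of *Ccn3*, too few to compare, and in wild-type they lay largely in a cluster led by *Colec11* (54.6 CPM). Among the 5 tested classes the centred ratios lay within 0.85 of 0 in each comparison, and none passed 2-fold. The small difference in interstitial progenitor-like cells, 0.20 and 0.19 in Mgp-KO and Pd-KO over wild-type, turned to -0.07 and -0.10 with another random seed of the clustering, so its sign was not stable.

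Among stromal classes, *Ccn4* was concentrated in Areg-like and Col18a1 stromal cells. Areg-like cells had 19.0 CPM (16.6 to 21.7) in wild-type, 11.4 CPM (8.48 to 15.1) in Mgp-KO and 21.2 CPM (17.0 to 26.0) in Pd-KO. Col18a1 stromal cells had 12.5 CPM (10.98 to 14.19), 20.1 CPM (17.8 to 22.6) and 12.3 CPM (9.23 to 15.9). In both classes wild-type and Pd-KO overlapped and Mgp-KO lay apart, below them in the former and above them in the latter. Interstitial progenitor-like, Cilp/Sfrp2 fibroblast-like and preadipocyte-like cells had 0.259 to 1.32 CPM in all libraries. Luminal epithelial-like cells had 0.452, 0.332 and 0.649 CPM. The order of the classes thus changed, with Areg-like cells highest in wild-type and Pd-KO and Col18a1 stromal cells highest in Mgp-KO.

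The values behind *Ccn4* were small, 216, 50 and 90 UMIs in Areg-like cells and 240, 282 and 55 UMIs in Col18a1 stromal cells. Its centred log2 ratio for Mgp-KO over wild-type was -0.89 (-1.37 to -0.45) in the former and 0.52 (0.26 to 0.77) in the latter, and no ratio passed 2-fold. Pd-KO over Mgp-KO, within a single software version, was 0.77 (0.26 to 1.30) in the former and -0.74 (-1.19 to -0.32) in the latter. Mgp-KO over wild-type in Col18a1 stromal cells turned to -0.22 in cells with *Xist* alone. In smooth muscle-like cells 29, 4 and 1 UMIs were counted, and in wild-type the *Cnn1* and *Actg2* cluster had 31.9 CPM.

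*Ccn5* was the member with the highest ratios of both knockouts over wild-type and was concentrated in Cilp/Sfrp2 fibroblast-like cells. There it stood at 90.8 CPM (84.5 to 97.5) in wild-type, 151 CPM (145 to 157) in Mgp-KO and 184 CPM (178 to 190) in Pd-KO. The thinned share of cells with a UMI was 9.40%, 15.7% and 19.0% (27.2%, 33.6% and 41.3% unthinned), against 0%, 1.16% and 0.787% of luminal epithelial-like cells. *Ccn5* headed the genes of this cluster by fold although it had not been used to form it, beside *Opcml*, *Cilp*, *Nox4* and *Adamtsl1*.

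The next class was interstitial progenitor-like cells, with 15.6 CPM (14.2 to 17.2) in wild-type, 51.9 CPM (49.0 to 54.9) in Mgp-KO and 43.8 CPM (41.1 to 46.5) in Pd-KO. Nearly all of this lay in the *Pi16* cluster, at 24.1, 108 and 104 CPM, and little in the *Krtdap* cluster, at 1.97, 9.73 and 6.90 CPM. Both knockouts were above wild-type in each of these clusters. Preadipocyte-like cells had 11.8, 24.9 and 19.3 CPM, of which the *Icam1* cluster had 6.57, 23.97 and 18.8 CPM and the cluster with *Apoe* and *Mmp3* had 17.4, 27.6 and 20.6 CPM. Areg-like cells had 9.85, 23.5 and 12.9 CPM. Col18a1 stromal cells had 3.70, 5.05 and 10.3 CPM, from 71, 71 and 46 UMIs, and only Pd-KO lay apart from wild-type there. Their thinned shares were 0.352%, 0.707% and 1.07%, with overlapping intervals, beside 0%, 1.16% and 0.787% of luminal epithelial-like cells.

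Endothelial-like and pericyte-like cells held almost no *Ccn5*, whereas smooth muscle-like cells held some. Endothelial-like cells held 5, 1 and 3 UMIs in all, and pericyte-like cells 1, 0 and 2. Smooth muscle-like cells had 9.83, 10.2 and 11.4 CPM, and in wild-type and Pd-KO these UMIs were concentrated in the *Colec11* cluster (80.7 and 47.9 CPM). The free RNA level of *Ccn5* was 13.1, 31.6 and 47.9 CPM, in the order of the stromal cells, while endothelial-like cells of the same libraries had 0.948, 1.21 and 1.01 CPM.

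**Figure D3:**
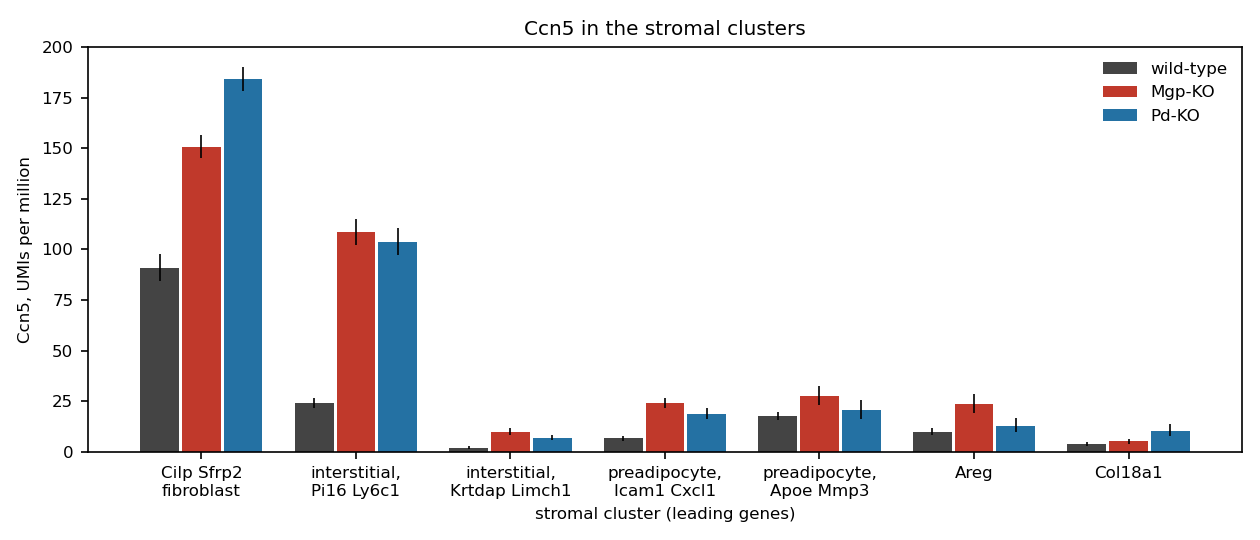
*Ccn5* level (vertical axis, CPM of summed UMIs) in 7 stromal clusters of each library; bars are the levels and lines 95% exact Poisson intervals, which cover counting error only. In the *Pi16* cluster wild-type lies at 24.1 CPM and both knockouts above 100 CPM, and the Cilp/Sfrp2 fibroblast-like cluster is the highest in each library.

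Over the 5 stromal classes together, which does not depend on how the stroma was divided, *Ccn5* was 17.5 CPM (16.7 to 18.4) in wild-type, 56.9 CPM (55.2 to 58.6) in Mgp-KO and 77.2 CPM (75.05 to 79.34) in Pd-KO. The thinned shares were 2.49%, 6.37% and 7.59%. The stromal total also moves with the share of Cilp/Sfrp2 fibroblast-like cells, which numbered 617, 2151 and 1851, and fewer cells of a class and a lower level per cell both enter it.

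The centred log2 ratio of *Ccn5* for Mgp-KO over wild-type was 1.58 (1.42 to 1.74) in interstitial progenitor-like cells and 1.10 (0.69 to 1.49) in Areg-like cells, the 2 values past 2-fold. Preadipocyte-like cells had 0.92 and Cilp/Sfrp2 fibroblast-like cells 0.60. For Pd-KO over wild-type it was 1.30 (1.14 to 1.47) in interstitial progenitor-like and 1.28 (0.71 to 1.83) in Col18a1 stromal cells, both past 2-fold, 0.86 in Cilp/Sfrp2 fibroblast-like cells and 0.14 (-0.35 to 0.62) in Areg-like cells. Pd-KO over Mgp-KO was -0.30 (-0.42 to -0.18) in interstitial progenitor-like cells (0.44 in cells with a Y-linked UMI and no *Xist*), 0.22 (0.15 to 0.30) in Cilp/Sfrp2 fibroblast-like cells (-0.02 in the same cells) and -0.50 (-0.73 to -0.28) in preadipocyte-like cells. It was -0.98 (-1.48 to -0.49) in Areg-like cells and 0.99 (0.42 to 1.54) in Col18a1 stromal cells, where 1 knockout alone was past 2-fold over wild-type. Neither of these calls over wild-type held in every alternative. Mgp-KO in Areg-like cells ran from 0.51 to 1.59, and Pd-KO in Col18a1 stromal cells from 0.71 to 1.65, without a change of sign. The ratio in interstitial progenitor-like cells over wild-type also kept its sign, within 1.06 to 1.78 for Mgp-KO and 0.38 to 1.68 for Pd-KO. Its 2-fold call held in every alternative for Mgp-KO. For Pd-KO the call did not hold, at 0.38 without integration and 0.40 in cells with *Xist* alone. The ratio in Cilp/Sfrp2 fibroblast-like cells did not keep its sign. In cells with *Xist* alone it was -0.13 for Mgp-KO, and without integration of the libraries, when that class held 31 wild-type cells, it was -1.64 for Mgp-KO and -1.43 for Pd-KO. The sign also turned for Mgp-KO in Col18a1 stromal cells (0.29, range -0.19 to 0.86). For Pd-KO it turned in preadipocyte-like (0.41, range -0.29 to 0.74) and Areg-like cells (range -0.46 to 0.52).

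Sex was mixed within each library and could be separated by cell. In Cilp/Sfrp2 fibroblast-like cells, *Ccn5* in cells with *Xist* and no Y-linked UMI was 137 CPM in wild-type, 143 CPM in Mgp-KO and 212 CPM in Pd-KO. In cells with a Y-linked UMI and no *Xist* it was 62.3, 163 and 175 CPM. Wild-type and Mgp-KO were thus close in the former and apart in the latter. Over all stromal classes the knockouts were above wild-type in both, at 19.3, 55.9 and 53.1 CPM with *Xist* and 16.3, 58.1 and 93.6 CPM with Y-linked UMIs. *Ccn1* showed no such split, at 292, 534 and 187 CPM with *Xist* and 292, 544 and 203 CPM with Y-linked UMIs.

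Counting all members, Mgp-KO over wild-type had 2 of 27 pairs past 2-fold higher, both *Ccn5*, and 0 lower, against 10.6% higher and 2.55% lower among all 67271 tested pairs of gene and class. The share higher was near the background. Pd-KO over wild-type had 2 pairs higher, both *Ccn5*, and 5 lower, of which 4 were *Ccn2* and 1 *Ccn1*, against 13.7% higher and 3.98% lower among all 70509 pairs. Pd-KO over Mgp-KO had 0 higher and 13 lower, 7 of *Ccn1* and 6 of *Ccn2*, against 2.13% higher and 2.94% lower among 62721 pairs. The median centred log2 ratio of the 27 pairs was 0.50, -0.47 and -0.98 in the 3 comparisons, where that of all genes is 0 by construction. The comparisons with wild-type share that library, so their values are not independent of each other. The pair nearest inside the threshold was *Ccn1* in Areg-like cells, Pd-KO over Mgp-KO, just past -1.

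**Figure D4:**
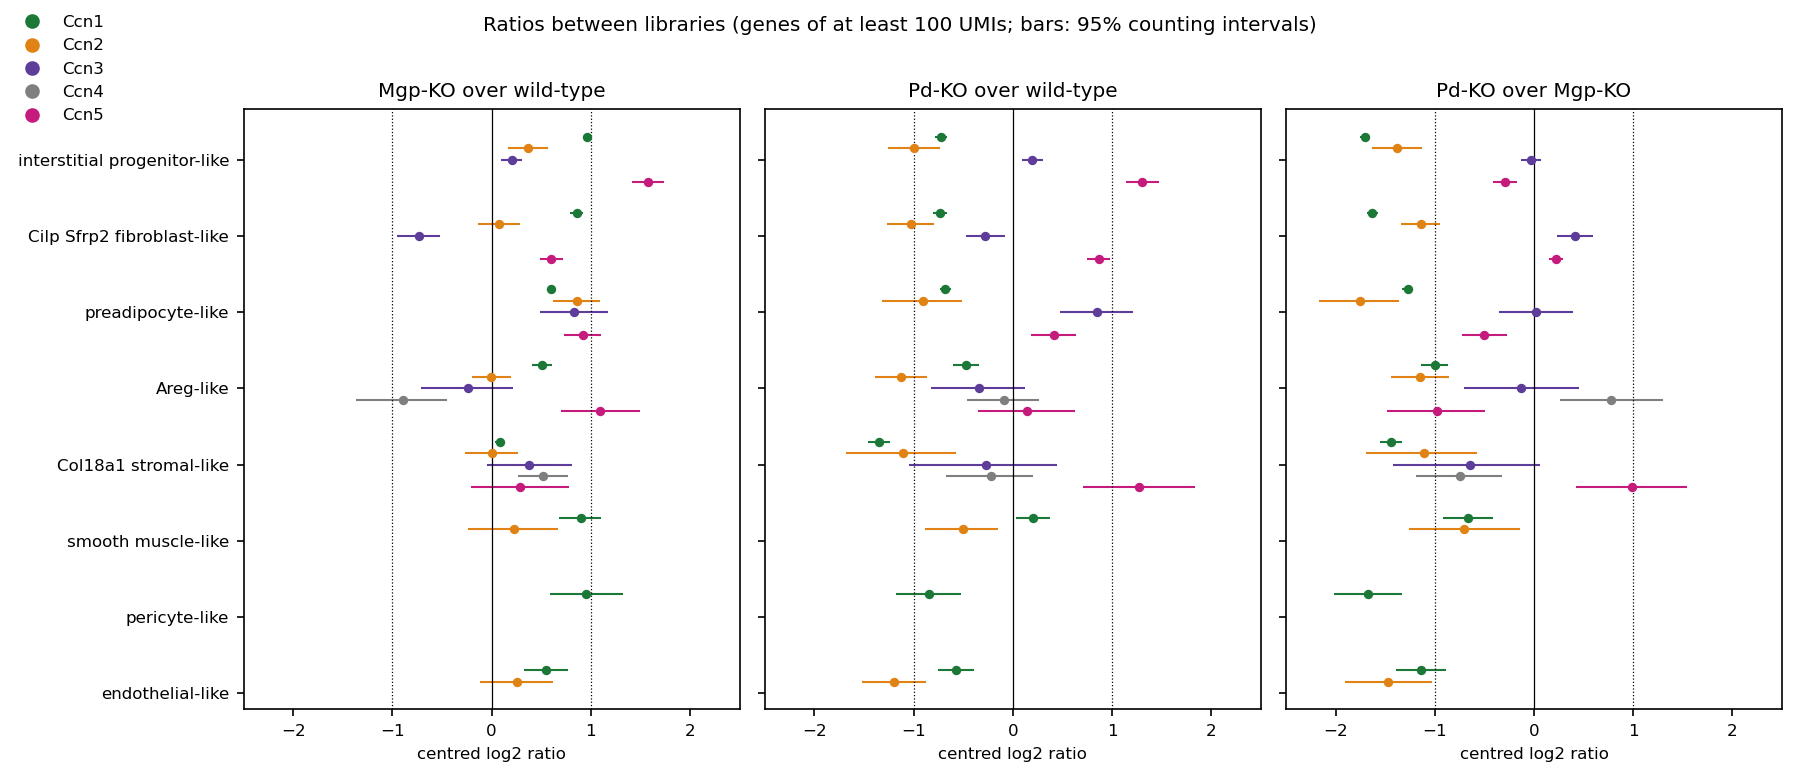
Centred log2 ratios of each CCN gene between libraries in the classes where it was tested, with 95% counting intervals and dotted lines at 2-fold; the horizontal axis is the log2 ratio relative to the median tested gene of the class. *Ccn1* and *Ccn2* are shifted to lower values in Pd-KO over Mgp-KO, with 13 of 15 points past 2-fold, and *Ccn5* is shifted to higher values in both knockouts over wild-type.

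These counts depended on the scaling. With nothing taken off, 5 pairs were higher and 0 lower for Mgp-KO over wild-type, 4 higher and 2 lower for Pd-KO over wild-type, and 1 higher and 12 lower for Pd-KO over Mgp-KO. With the running median over genes of similar span taken off, which compares a compact gene with other compact genes, they were 8 and 0, 4 and 0, and 1 and 8. On this scale the Pd-KO over wild-type values of *Ccn1* were -0.68 to -0.14 in the classes other than Areg-like (-0.00) and smooth muscle-like cells (0.64), and none was past 2-fold, while the difference of Pd-KO from Mgp-KO in interstitial progenitor-like cells lay within -1.75 to -1.51 under all settings. The 4 *Ccn2* pairs called lower in Pd-KO over wild-type were not past 2-fold on the span scale either. They were -0.80 in endothelial-like, -0.70 in Areg-like, -0.52 in Cilp/Sfrp2 fibroblast-like and -0.44 in Col18a1 stromal cells.

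**Figure D5:**
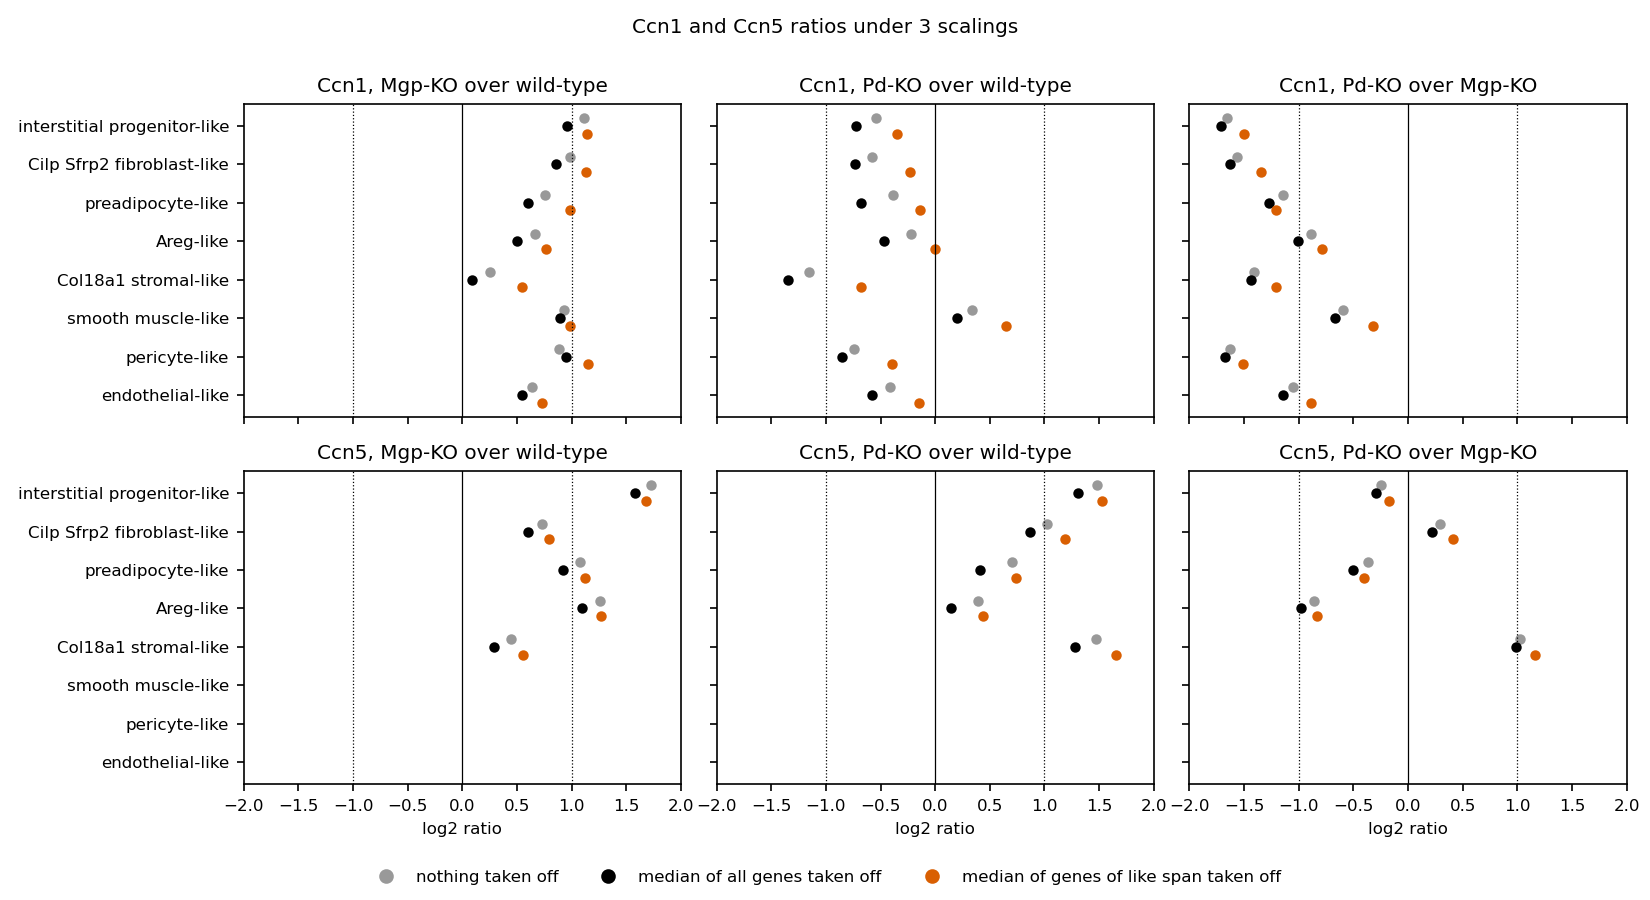
Log2 ratios (horizontal axis) of *Ccn1* and *Ccn5* in the tested classes for the 3 comparisons, each point under 1 of 3 scalings: nothing taken off, the median of all tested genes taken off, or the running median of genes of similar genomic span taken off; dotted lines mark 2-fold. *Ccn1* in Areg-like cells, Pd-KO over wild-type, moves from -0.47 with the median taken off to -0.00 with the span median taken off, while *Ccn5* in interstitial progenitor-like cells stays past 2-fold over wild-type under all 3.

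The genes connected to the family were read as lists, of which the immediate early list is given above. List ratios were centred on the median of all tested genes and were not rescaled by span. In the comparisons with wild-type, counting of intronic reads and genotype therefore cannot be told apart for these lists. The 13 CCN receptors and co-receptors included the integrins *Itgav*, *Itgb1* and *Itgb5* and the endocytic receptor *Lrp1*. In Mgp-KO over wild-type, 2 of 61 tested pairs were past 2-fold higher and 0 lower, with a median of 0.11 (all pairs 10.6% and 2.55%). In Pd-KO over wild-type 2 were higher and 5 lower of 65, with a median of 0.32 (all pairs 13.7% and 3.98%). All 5 lower pairs were *Sdc4*, the syndecan that assists integrins, in 4 stromal classes and smooth muscle-like cells (-1.64 to -1.01). The higher pairs were *Lrp6*, a Wnt co-receptor, in Col18a1 stromal (1.07) and pericyte-like cells (1.21). Pd-KO over Mgp-KO had 2 higher and 2 lower of 57, median 0.18 (all pairs 2.13% and 2.94%). In interstitial progenitor-like cells *Itgb1* was nearly level, at 252, 279 and 272 CPM.

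The 20 other genes of a YAP and TEAD target list were, like tested genes in general, more often past 2-fold higher than lower against wild-type. Of 110 tested pairs, 26 were past 2-fold higher and 0 lower in Mgp-KO over wild-type (median 0.27), where all tested pairs gave 10.6% higher and 2.55% lower. Pd-KO over wild-type had 26 higher and 6 lower of 113 (median 0.31, all pairs 13.7% and 3.98%). For Pd-KO over Mgp-KO there were 2 higher and 9 lower of 103 (median 0.11, all pairs 2.13% and 2.94%). The higher ones were mostly *Rbms3*, *Asap1* and *Crim1*; in interstitial progenitor-like cells *Rbms3*, an RNA-binding protein, was 111, 482 and 772 CPM. *Amotl2* and *Axl*, which are commonly read as YAP targets, were 52.9, 68.1 and 61.2 CPM and 454, 437 and 569 CPM in that class. *Igfbp3* was 108, 290 and 90.7 CPM there, past 2-fold in Mgp-KO (1.27) and not in Pd-KO (-0.44). CATTCC was held by 6 of the 16 promoters of this list in the RefSeq set (37.5%, against 14.7% of all promoters). Those promoters cover 14 of the 20 genes.

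Genes of the TGF-beta response, of which *Ccn2* is a classic member, were past 2-fold lower more often than higher. Of 63 tested pairs of 10 genes, 1 was higher and 7 lower in Mgp-KO over wild-type (median -0.19, all pairs 10.6% higher and 2.55% lower), and 1 higher and 15 lower in Pd-KO over wild-type (median -0.39, all pairs 13.7% and 3.98%). Pd-KO over Mgp-KO had 3 higher and 6 lower of 55 (median -0.10, all pairs 2.13% and 2.94%). *Postn*, a matricellular gene outside the family, was 359, 83.6 and 53.6 CPM in endothelial-like cells. Its centred log2 ratios over wild-type there were -2.19 in Mgp-KO and -2.91 in Pd-KO. Stromal classes held more *Postn* and differed less, with -0.92 to -0.33 in Mgp-KO and -0.32 to -0.06 in Pd-KO. Interstitial progenitor-like cells had 3146, 2202 and 2868 CPM. The part of free RNA in the endothelial-like values was not tested.

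Of 11 Wnt response genes, which bear on *Ccn4* and *Ccn5*, 8 of 24 tested pairs were past 2-fold higher and 0 lower in Mgp-KO over wild-type (median 0.68), against 10.6% and 2.55% of all tested pairs. Pd-KO over wild-type had 7 higher and 0 lower of 26 (median 0.51), against 13.7% and 3.98% of all pairs. Pd-KO over Mgp-KO, within a single software version, had 0 higher and 1 lower of 24 (median 0.02, all pairs 2.13% and 2.94%). In Col18a1 stromal cells *Lgr5*, a receptor for R-spondins, was 2.40, 31.4 and 36.8 CPM, and *Znrf3*, a ubiquitin ligase that removes Wnt receptors, 6.05, 38.3 and 48.6 CPM. Much of the higher count was this 1 gene. In Mgp-KO over wild-type *Znrf3* passed 2-fold in all 5 stromal classes (1.86 to 2.59), and *Nkd1* and *Apcdd1* passed it in none. In Pd-KO over wild-type *Znrf3* was 2.15 in interstitial progenitor-like, 2.62 in Cilp/Sfrp2 fibroblast-like, 2.34 in preadipocyte-like and 1.90 in Areg-like cells. *Axin2*, a feedback inhibitor of the pathway, was 3.66, 6.70 and 11.1 CPM in interstitial progenitor-like cells.

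The members had distinct patterns over 43 profiles of class and library. By Pearson r of log2(CPM + 1), which describes profiles that share libraries and depth, the genes most like *Ccn1* were *Fbxo30* (0.72), *Adamts1* (0.72), *Rhoj* (0.70), *C1qtnf1* (0.65) and *Sqstm1* (0.65). Those most like *Ccn2* were *Gm15270* (0.69), *Nexn* (0.65), *Pdk4* (0.64), *Cnn1* (0.63) and *Pgf* (0.63), and those most like *Ccn3* were *Calml4* (0.81), *Prss23* (0.77), *Uap1* (0.75), *Aida* (0.74) and *Ddah2* (0.73). *Ccn4* was followed most closely by *Col23a1* (0.71), *Wnt6* (0.70), *Gfra2* (0.69), *Tafa1* (0.69) and *Lrrn2* (0.66), with lower r than the genes nearest to *Ccn5*, which were *Adamtsl1* (0.89), *Irf4* (0.88), *Adora2b* (0.86), *Fgf18* (0.86) and *Itga11* (0.86). Between members r did not pass 0.39 (*Ccn3* with *Ccn5*), was 0.32 for *Ccn1* with *Ccn2*, and was lowest for *Ccn2* with *Ccn3* (-0.16).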

How the data were processed

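Droplet libraries of inguinal stromal vascular cells, 1 per genotype, were deposited by the authors as raw gene-by-barcode UMI counts from Cell Ranger, with no normalization. The file headers name version 4 for wild-type and 7.1.0 for both knockouts, whereas the submitters' processing notes name 6.1.1. The genome is mm10 in the study's methods and GRCm39 in those notes, so coordinates were taken from the GENCODE annotation of GRCm38 and the promoter from RefSeq for GRCm38.p6. The headers do not state whether intronic reads were counted.

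Barcodes with at least 2000 UMIs and at most 10% mitochondrial UMIs were kept, leaving 31905 cells with 184102026, 93212243 and 83942865 UMIs per library over all barcodes (wild-type, Mgp-KO, Pd-KO), of which 78.9%, 96.1% and 91.0% lay in those cells. Counts were clustered with scanpy 1.11.5 (2000 variable genes, 30 components, Harmony integration by library, 20 neighbours, leidenalg 0.10.2 at resolution 0.5), without *Ccn1* to *Ccn6*, *Mgp*, *Xist*, *Tsix* and Y-linked genes. Clusters were named from fixed marker lists, each needing at least 3 detected markers; the naming thresholds were set after the clusters were seen, and clusters led by markers of another class were left unnamed. Doublets were not removed in the main values. Scrublet called 2.79%, 0.0159% and 2.57% of cells, a failure in Mgp-KO, so removal of the top 8% of scores was added as an alternative.

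UMIs were summed per class and library and given as CPM with exact Poisson intervals at 95%. Shares of cells were taken after thinning each cell to 2000 UMIs, with Clopper-Pearson intervals. Ratios took exact conditional binomial intervals, with 0 set to 0.5 UMIs, and were centred on the median of genes with at least 100 UMIs in both libraries of the class together; 2-fold was the threshold. With 1 library per genotype no p-value was computed, intervals cover counting error only, and several pooled mice count as 1 sample. The calculation of ratios was tested on simulated data. The text names *Ccn1* to *Ccn6*, genes of fixed marker and pathway lists, the 5 genes of highest r with each member among genes of at least 500 UMIs over classes of at least 30 cells, and the leading genes of clusters. Members and lists were chosen with earlier results of these data known. For 1 gene of the fixed lists, which is counted with its list, the values are not reported here. Of 15 alternatives, 13 were planned and 2 were chosen after seeing the data. Python 3.11.15, numpy 2.4.6, scipy 1.17.1, pandas 2.3.3 and matplotlib 3.10.9 were used.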

Additional observations from a re-analysis of the deposited data

Results flagged for a closer look

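The ratio of *Ccn1* in Pd-KO over wild-type differed in direction between classes. It was 0.20 on the centred log2 scale in smooth muscle-like cells, with a counting interval above 0, and -1.35 in Col18a1 stromal cells, with an interval below 0. Each class rests on 1 library per genotype, so the difference between them was not tested.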

How the results depend on the processing

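No paired analysis was possible because each genotype has 1 library. The number of pairs past 2-fold for Mgp-KO over wild-type, 2 as reported, was 5 with nothing taken off, 8 with the running median over genes of similar span, 4 at 5000 UMIs or more per cell, 5 at 5% mitochondrial UMIs or less, 4 in cells with a Y-linked and no *Xist* UMI, 4 without integration, 4 at Leiden resolution 1.0, 6 with classes set by each cell's highest marker score, and 1 without the top 8% of Scrublet scores. For Pd-KO over wild-type, 7 as reported, it was 4 with the span median, 4 in Y-linked cells, 11 with the marker score and 12 at a minimum of 20 UMIs. For Pd-KO over Mgp-KO, 13 as reported, it was 8 in Y-linked cells, where 16 pairs could be tested. The other alternatives stayed within 1.5 times of the reported counts. These counts add higher and lower pairs and so hide changes of direction. Without integration, Pd-KO over wild-type had 0 higher and 8 lower, against 2 and 5 as reported. Mgp-KO over wild-type then had 2 higher and 2 lower, against 2 and 0. In cells with *Xist* and no Y-linked UMI, Pd-KO over wild-type had 0 higher and 5 lower of 19 tested pairs. *Ccn2* in Cilp/Sfrp2 fibroblast-like cells, Pd-KO over wild-type, reversed from -1.03 to 0.22 in cells with *Xist* and no Y-linked UMI. The cause was not tested.

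The division of *Pi16*-rich stroma into interstitial progenitor-like and Cilp/Sfrp2 fibroblast-like cells was the least stable step. Without integration the former class held 2462 wild-type and 43 Mgp-KO cells and the latter 31 wild-type and 5910 Mgp-KO cells, so those classes then followed the library. Depth limits *Ccn4* in every class, *Ccn5* in vascular cells and *Ccn2* in pericyte-like cells, and no value has a replicate error.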

Other observations

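Outside the named classes, *Ccn2* was high in a small unnamed endothelial cluster with *Cytl1*, *Mgp*, *Vwf*, *Comp* and *Bmp4* among its leading genes. In wild-type its 30 cells held 109 *Ccn2* UMIs, or 595 CPM (489 to 718), against 72.3 CPM in the endothelial-like class. The knockouts had too few cells of this cluster to compare. The cluster was singled out after its values were seen.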
